A study of Mus musculus with 96 samples.

Results

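Wells of mouse embryonic stem (ES) cells that yielded many different transcripts were compared with wells that yielded few. The wells were chosen by their measured read counts: among 48 ES cell wells, 39 held at least 50000 reads on gene rows, 7 of these with 3800 or more gene rows with a read formed the gene-rich group, and 18 with under 2200 formed the gene-poor group. Another 14 wells lay between the limits and 9 held too few reads, so the groups took in 25 of the 96 wells of the series. A gene row is a line of the deposited table for 1 transcript locus, and spike-in and repeat rows were left out of the choice. The fewest rows in a gene-rich well were 3873 (replicate 26) and the most in a well just under that limit were 3669 (replicate 27). The most rows in a gene-poor well were 2094 (replicate 31) and the fewest just above that limit were 2316 (replicate 5).

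The series measured single cells by single-cell tagged reverse transcription (STRT), in which cDNA is barcoded by well and sequenced from the 5′ ends of the transcripts. One plate carried the 48 ES cells, 44 fibroblasts of the mouse embryo (MEFs) and 4 negative controls. All ES cells belonged to the R1 line, were untreated as far as the labels say and carry no age, genotype or culture label that separates them, so every gene-rich and gene-poor well was a cell of the same culture label. The MEF wells were labelled with R1 as their source line too, against their cell type label, and were grown in a serum medium of their own. No well is a biological replicate of another here, and the groups were cut from the readout, so the values below are descriptions of wells without a test.

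A cell's messenger RNA is made of a few very abundant species, among them those for the ribosome, and a long tail of rarer ones. Ribosomal protein mRNAs belong to the most abundant transcripts of ES cells, which divide fast and make much protein. ES cells are kept undifferentiated by a network of transcription factors around Pou5f1, Sox2 and Nanog, while fibroblasts are known for secreting collagen and fibronectin matrix and for a contractile actin skeleton. In a single cell a rare mRNA can be missed at reverse transcription, so a count of genes in a well depends on its RNA, on capture and on depth. In these wells fewer RNA molecules in the cell and less capture of them cannot be told apart.

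Set against MEFs, the ES cell markers fit the ES cell label in both groups, but not equally in every well. Most MEF markers were also read in every gene-rich well. All 16 markers listed for ES cells had a read in each group. Their summed share of gene reads ran from 0.14% to 1.59% (median 0.90%) in gene-rich wells and from 0.24% to 1.502% (median 0.64%) in gene-poor wells, against a median of 0.0047% in MEFs. The 4 negative control wells held 0.061% to 1.27% (median 0.65%), with 10 of the 16 markers unread. The share alone therefore does not tell a gene-poor well from an empty one. The 15 MEF markers summed to 0.20% to 5.07% (median 0.70%) in gene-rich wells and 0.048% to 0.48% (median 0.10%) in gene-poor wells. Their medians were 5.27% in MEFs and 4.05% in negative control wells, and Postn alone of them had no read in any gene-rich well. At 50000 reads 11 to 14 MEF markers (median 14) were read in gene-rich wells, and 11 to 14 (median 12) without replicates 4 and 22. Gene-poor wells held 3 to 10 (median 8) and MEFs 10 to 15 (median 13). Of the ES cell markers 8 to 15 were read in gene-rich wells, 4 to 12 in gene-poor wells and 0 to 4 in MEFs. These numbers follow the choice of wells by rows read. Replicate 4, a gene-rich well, went against its ES cell label on these measures: its MEF marker share was the 5.07% and its ES cell marker share the 0.14%. Among the 39 ES cell wells deep enough to be grouped, only replicates 4 and 22 had a profile correlating more with the MEF mean than with the ES cell mean. The correlations were 0.790 against 0.636 for replicate 4 and 0.757 against 0.740 for replicate 22. These wells also held the most rows at equal reads, and the part of row number in this measure was not tested. Values without replicates 4 and 22 are given beside the results that they move. Of the early endoderm markers, Gata6, Gata4, Sox17, Sox7 and Foxa2 had no read in either group. The 9 markers in the table summed to a median of 0.018% of gene reads in gene-rich and 0.0033% in gene-poor wells. At 50000 reads 2 to 4 of them were read against 0 to 2. Their median sum was higher in MEFs (0.12%) and in negative control wells (0.061%) than in gene-rich wells. Neither group had a read of the 6 markers in the table for the 2-cell-like state.

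Gene reads ran from 55056 to 607901 (median 295604) in the gene-rich wells and from 65083 to 263306 (median 147480) in the gene-poor wells, and the negative control wells held 236 to 4662. Gene-rich wells lay in plate rows A to D (4 wells) and E to H (3 wells), gene-poor wells in both as well (7 and 11). Each of the 25 wells had a barcode that differed at 3 or more of its 6 bases from every MEF barcode.

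Gene-rich wells kept more gene rows when every well was reduced to the same number of reads. At 50000 reads, the expected number of rows was 2809 to 4676 (median 3297) in the gene-rich wells and 1149 to 1756 (median 1352) in the gene-poor wells, a ratio of medians of 2.44, and MEFs held a median of 4495. The groups did not overlap, as the choice of wells largely fixed. The separation was already present at 5000 reads, with 1023 to 2081 rows (median 1311) against 597 to 865 (median 691). It was also present with ribosomal protein genes left out and 30000 other reads drawn, with medians of 3226 and 1366 rows.

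**Figure D1:**
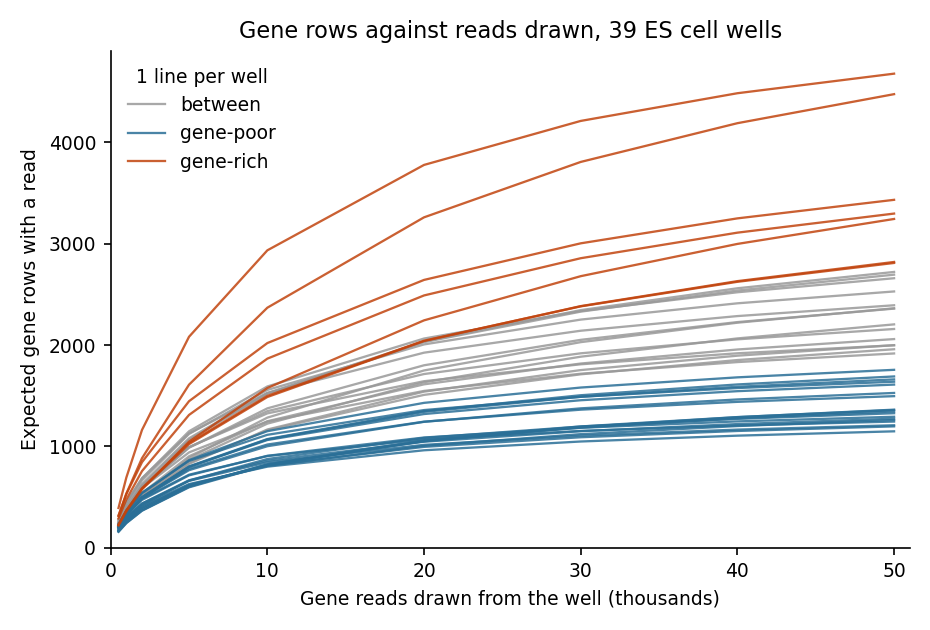
Expected gene rows with a read (vertical axis) against the number of gene reads drawn from a well (horizontal axis, in units of 1000 reads), 1 line for each of 39 ES cell wells, coloured by group. At 50000 reads the gene-rich lines end between 2809 and 4676 rows and the gene-poor lines between 1149 and 1756, and the 14 wells between the limits fill the gap.

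Rows with few reads differed without overlap, and rows with many overlapped. The rows with few reads are most of the row number by which the wells were chosen, so their separation was largely fixed by the choice. After thinning, which draws 50000 reads at random from each well, rows with a single read numbered 828 to 1237 (median 841) in gene-rich wells and 149 to 337 (median 262) in gene-poor wells. Rows with 2 to 4 reads had medians of 1054 and 375.5, and rows with 5 to 19 reads medians of 1017 and 459.5, again without overlap. Rows with 20 or more reads numbered 232 to 513 (median 354) against 205 to 361 (median 300), and these ranges overlapped. The rows read in gene-rich wells tended to be longer transcripts: the median length of the rows read was 2409 to 2873.5 bases (median 2724) in gene-rich wells and 1804 to 2585.5 bases (median 2260.5) in gene-poor wells.

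More rows were read both among transcripts that MEFs make and among those they hardly make. Both sets are parts of the row number by which the wells were chosen, which favours more rows in gene-rich wells. Of the rows at 10 CPM (gene reads scaled to a total of 1000000) or more in MEFs, 50000 reads gave a median of 2938 in gene-rich and 1181 in gene-poor wells. Of the 9978 rows under 1 CPM in MEFs, they gave 41.3 to 144.8 (median 83.9) in gene-rich wells, 26.5 to 62.3 (median 41.3) in gene-poor wells and a median of 18.2 in MEFs. Here 5 of 7 gene-rich wells lay above every gene-poor well, and the lowest, replicate 4, equalled the gene-poor median.

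More types of repeats were read in gene-rich wells too, on rows that the rule left out. These rows count reads on transposable elements and other repeats. At 5000 repeat reads, a gene-rich well held 163.8 to 244.8 repeat types (median 192.9) and a gene-poor well 98.9 to 172.3 (median 133.4), with 6 of 7 gene-rich wells above every gene-poor well. Repeat reads per 100 gene reads were 12.96 to 57.7 (median 42.8) against 12.6 to 41.3 (median 29.7), and 4 of the gene-rich wells lay above every gene-poor well. The most read types were short B2 elements in both groups: B2_Mm1a took a median of 22.8% of repeat reads in gene-rich and 30.8% in gene-poor wells. The LINE-1 type L1Md_T took 9.11% against 5.06%. The endogenous retrovirus type RLTRETN_Mm took 1.81% against 2.06% and 0.028% in MEFs.

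Ribosomal protein genes took a smaller share of gene reads in 4 of the 7 gene-rich wells than in any gene-poor well. The share was 11.8% in replicate 4, 26.5% in replicate 22, 30.1% in replicate 26, 32.9% in replicate 47, 45.7% in replicate 21, 48.6% in replicate 10 and 50.7% in replicate 41. Gene-poor wells held 41.4% to 57.5% (median 47.9%), the wells between the limits 35.8% to 55.4%, and MEFs a median of 14.1%. The gene-rich group therefore spanned low and ordinary shares, and 3 of its wells could not be told from gene-poor wells by this measure. On thinned reads the difference of medians was -14.8 percentage points. It was -1.92 points without replicates 4 and 22. In wells with at least 100000 gene reads, a limit that drops gene-rich replicates 4 and 26 and gene-poor replicates 6, 18, 40, 42 and 43, it was -2.23 points. Summed over the wells of a group, the thinned share was 35.2% (exact 95% binomial interval 35.1% to 35.4%) against 49.3% (49.2% to 49.5%), an interval that covers counting error only.

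Rpl4, a protein of the large subunit, made up most of the difference. Mean shares of all 84 ribosomal protein genes differed by -14.1 percentage points (gene-rich minus gene-poor), of which Rpl4 made -7.95. Of 82 measured ribosomal protein genes, 5 were at least 2-fold higher in gene-rich wells and 0 at least 2-fold higher in gene-poor wells, while 31.2% and 18.4% of all 2229 measured genes were. A gene was measured with at least 50 thinned reads over the 25 wells, and folds are log2 ratios of mean CPM with 10 CPM added. The list median was -0.21, against 0.22 for all measured genes, and 0.05 when wells were scaled by spike-in reads. Rpl4 alone took 1.07% to 24.5% of gene reads in gene-rich wells and 5.10% to 31.4% in gene-poor wells. Its CPM in gene-rich wells was 10740 (replicate 4), 49000 (26), 76160 (47), 84540 (22), 189100 (21), 200060 (10) and 242920 (41), and the gene-poor wells ran from 51920 to 316040 (median 203750). The log2 ratio was -0.72 for Rpl4, -0.36 for Rpl41 and -0.32 for Rpl23, all proteins of the large subunit. Without replicates 4 and 22 these were -0.41, -0.21 and -0.06.

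Other parts of the translation machinery were near even. Among 28 translation factors 3 were at least 2-fold higher in gene-rich and 2 in gene-poor wells, beside 31.2% and 18.4% of all measured genes. The list median was 0.08. Eef1a1, the elongation factor that brings aminoacyl-tRNA to the ribosome, stood at 6194 and 6168 mean CPM, a log2 ratio of 0.01. Tpt1, a growth-linked protein whose mRNA carries the same 5′ pyrimidine motif as ribosomal protein mRNAs, was higher in gene-rich wells (1366 against 373 mean CPM, log2 ratio 1.84), as was Eif3f, a subunit of an initiation factor (1.39). Eif4b, an initiation factor that aids the Eif4a helicase, was lower (-1.23). Tpt1 was read in all 7 gene-rich and all 18 gene-poor wells and stayed between 1.33 and 2.03 with each single well left out.

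Matrix genes, typical of fibroblasts, were higher in gene-rich wells. Their summed share was 0.21% to 5.57% (median 0.85%) in gene-rich wells and 0.039% to 0.53% (median 0.11%) in gene-poor wells, and 5 of 7 gene-rich wells lay above every gene-poor well. MEFs held a median of 5.81%. Of 22 measured matrix genes, 21 were at least 2-fold higher in gene-rich wells and 0 in gene-poor wells, with a median log2 ratio of 2.99. The shares over all measured genes were 31.2% and 18.4%. Without replicate 4 the count of matrix genes was 20, and without replicates 4 and 22 it was 20 with a median of 1.77. Over the thinned wells of a group the share was 1.44% (exact 95% binomial interval 1.40% to 1.48%) against 0.156% (0.148% to 0.164%), intervals that cover counting error only.

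Thbs1, a matrix glycoprotein that platelets and fibroblasts secrete, was at 14260 CPM in replicate 4, 2420 in replicate 22, 2180 in replicate 26, 1760 in replicate 10, 1500 in replicate 41, 760 in replicate 21 and 400 in replicate 47. Gene-poor wells ran from 40 to 480 (median 190), so only replicate 47 fell inside their range. The log2 ratio of means was 3.94, and 2.61 without replicates 4 and 22. Fn1, fibronectin, was at 1000 to 15160 CPM in gene-rich and 0 to 3220 in gene-poor wells (log2 ratio 2.62, 1.41 without both wells). Col1a1 and Col1a2, the chains of type I collagen, had log2 ratios of 3.40 and 3.66. Col1a1 lay at 20 CPM, which is 1 thinned read, in replicates 41 and 47, so its higher mean came from the other gene-rich wells. Col12a1, a collagen that binds to collagen fibrils, stood at 3.81 and Timp2, an inhibitor of matrix metalloproteinases, at 3.74. Vim, the intermediate filament protein of mesenchymal cells, stood at 2.25 and was read in every well of both groups. Without replicates 4 and 22 the log2 ratios were 2.21 for Col1a1, 2.29 for Col1a2, 2.46 for Col12a1, 2.82 for Timp2 and 1.34 for Vim.

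Set against the spike-in reads, matrix reads in 13 of 18 gene-poor wells were no higher than in the highest negative control well, and in 0 of 7 gene-rich wells. Matrix reads per 1000 spike-in reads were 27.2 to 403 (median 43.4) in gene-rich wells, 3.39 to 29.04 (median 6.70) in gene-poor wells, 1.87 to 10.8 (median 4.60) in negative control wells and a median of 8589 in MEFs. Just 1 gene-poor well reached above the lowest gene-rich well. Pluripotency reads on the same scale were 19.96 to 261 in gene-rich wells, 14.3 to 138.5 in gene-poor wells and 0.24 to 1.08 in negative control wells. The source of the matrix reads in ES cell wells was not tested.

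**Figure D2:**
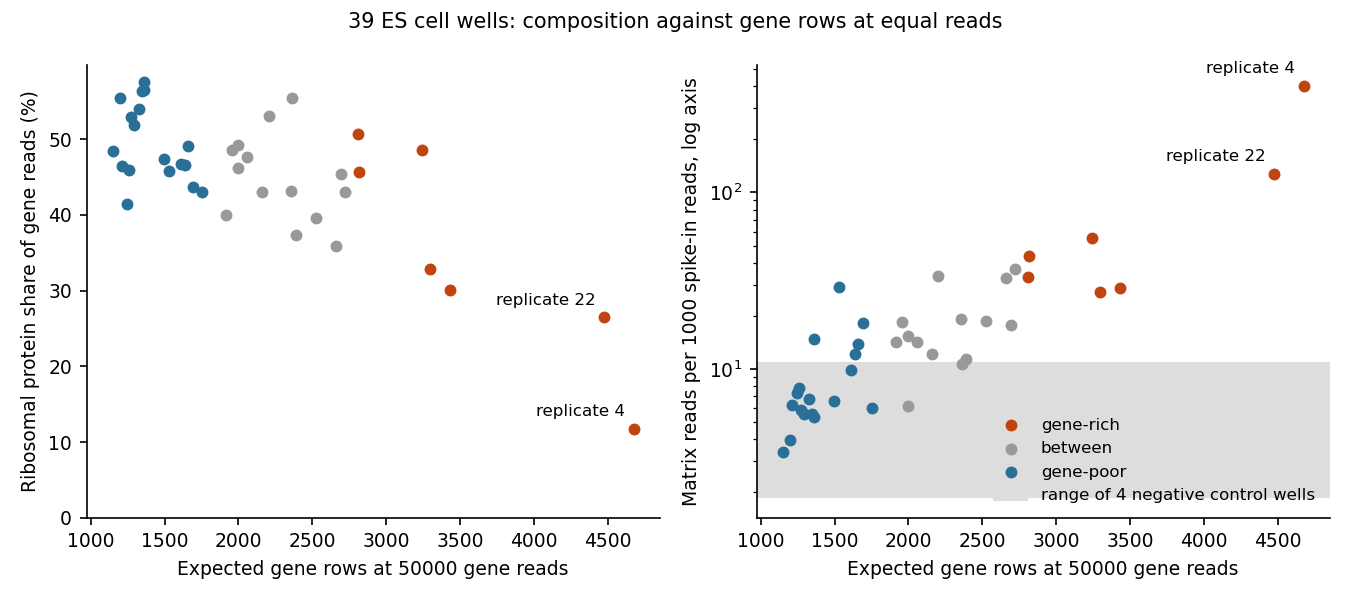
Ribosomal protein share of gene reads in percent (left) and extracellular matrix reads per 1000 spike-in reads on a log axis (right) against the expected gene rows at 50000 gene reads, 1 point for each of 39 ES cell wells. Replicates 4 and 22 combine the most rows with low ribosomal shares of 11.8% and 26.5%, and the grey band marks the negative control wells at 1.87 to 10.8 matrix reads, which hold 13 of the 18 gene-poor wells.

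Actin cytoskeleton and contractile genes were higher in gene-rich wells in the same way. A 2-fold or higher mean was found in gene-rich wells for 17 of the 20 measured and in gene-poor wells for 0 (median log2 ratio 2.41). Without replicates 4 and 22 the count was 16 (median 1.68). Over all measured genes the shares were 31.2% and 18.4%. The summed share of the actin list was 0.75% to 4.65% (median 1.29%) against 0.13% to 1.70% (median 0.43%), so the ranges overlapped. Tpm1, a tropomyosin that stabilises actin filaments, was at 160 to 5780 CPM against 20 to 380 (log2 ratio 3.59). Lmna, a nuclear lamin scarce in undifferentiated cells, stood at 3.47, Actn1, an actin crosslinker, at 3.33 and Acta2, smooth muscle actin, at 3.25. Without replicate 4, Actn1 stood at 1.86 and Acta2 at 2.20. They stood at 1.55 and 1.83 without replicates 4 and 22, with Tpm1 at 2.77 and Lmna at 2.87. Actb, the cytoplasmic actin made by most cells, was at 4257 against 1247 mean CPM (1.76, and 0.97 without replicates 4 and 22), with 79.03% of its reads uniquely mapped.

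The pluripotency genes as a sum took nearly the same share of reads in both groups. This sum leans on 1 member, Dppa5a, with 1038 of the 3568 thinned list reads in gene-rich wells and 4424 of the 8831 in gene-poor wells. It therefore does not stand for the other members. The share of the whole list was 0.28% to 1.99% (median 1.04%) in gene-rich wells and 0.30% to 1.85% (median 0.97%) in gene-poor wells. Over the thinned wells it was 1.02% against 0.981%. With ribosomal protein genes left out of the total, the medians differed by -0.48 percentage points, lower in gene-rich wells. At 50000 reads 17 to 30 of the 44 list genes in the table (median 23) were read in gene-rich wells and 6 to 20 (median 12.5) in gene-poor wells, a number that follows the choice of wells by rows read.

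Pluripotency genes with at least a 2-fold higher mean numbered 7 of 24 in gene-rich wells and 2 in gene-poor wells, and 15 were neither. Of all measured genes, 31.2% and 18.4% were. The list's median log2 ratio was 0.27, and that of all measured genes 0.22. Pou5f1, the POU factor at the centre of the network, was at 220 to 1060 CPM in gene-rich and 0 to 2200 in gene-poor wells, with means of 574 and 679 (log2 ratio -0.24). It was read in 7 of 7 and 17 of 18 wells. Sox2, its partner on DNA, had means of 589 and 174 (1.70), but the gene-rich mean rested on replicate 41 at 2980 CPM, and the ratio was 0.12 at its lowest with a single well left out. Nanog was read in 2 of 7 and 1 of 18 wells and allows no comparison. Zfp42, a zinc finger gene that marks the naive state, stood at 0.54.

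Lin28a, an RNA-binding protein that blocks let-7 maturation, differed most in this list. Its CPM in gene-rich wells was 3560 (replicate 10), 1100 (47), 720 (21), 460 (41), 280 (22), 100 (4) and 0 (26), and gene-poor wells ran from 0 to 160 with a median of 0. It was read in 6 of 7 against 5 of 18 wells, with means of 889 and 22.2 CPM (log2 ratio 4.80). Without replicates 4 and 22 the log2 ratio was 5.19, and without replicate 10 it was 3.81. MEFs held 0.30 CPM of it on average. Of 9 measured factors of the naive network, 4 were at least 2-fold higher in gene-rich wells, 1 in gene-poor wells and 4 in neither. Over all measured genes the shares were 31.2% in gene-rich and 18.4% in gene-poor wells. Tcfcp2l1 stood at 2.58 (0 to 4980 CPM) and Klf4, a Kruppel-like factor, at 2.43. They were at 1.96 and 2.73 without replicates 4 and 22, and at 1.70 without replicate 22 and 1.67 without replicate 26. Klf2 stood at 1.3, and at 0.55 without replicate 26. Klf5, named after its values were seen, was the factor higher in gene-poor wells, at 28 thinned reads over the gene-rich and 166 over the gene-poor wells (log2 ratio -1.11, and -0.42 with a single well left out). Mkrn1, a ubiquitin ligase, had a lower mean (-2.28, at 114 against 593 mean CPM), and stood at -1.29 with a single well left out. Its median went the other way, at 40 against 0 CPM, with reads in 6 of 7 and 8 of 18 wells. The gene-poor mean rested largely on replicates 31 (5700 CPM) and 48 (2740 CPM). Dppa5a, a KH-domain protein abundant in ES cells, was at 320 to 10160 CPM against 640 to 14180 (log2 ratio -0.73), with overlapping ranges.

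**Figure D3:**
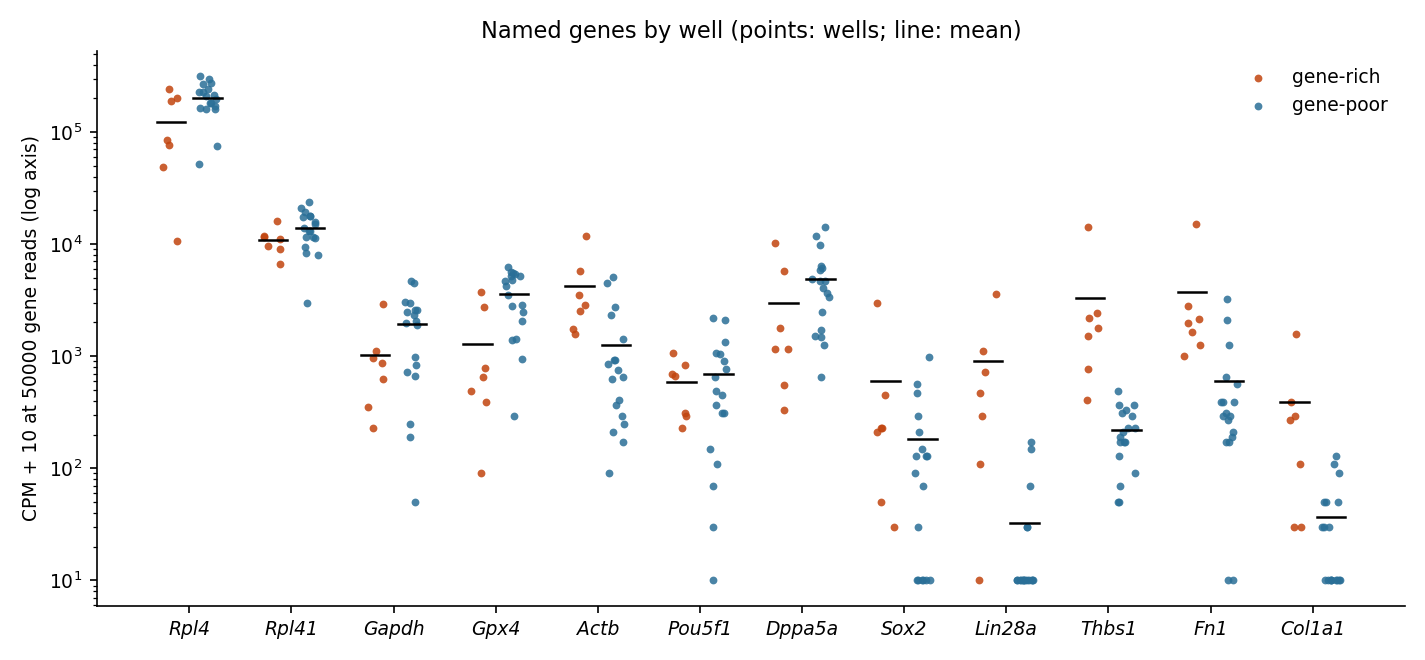
CPM with 10 added at 50000 gene reads (log axis) of 12 named genes, 1 point per well, with the group mean as a line. Thbs1 in gene-rich wells (400 to 14260 CPM) lies almost wholly above gene-poor wells (40 to 480), Lin28a is mostly at 0 in gene-poor wells, and Pou5f1 overlaps.

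Shares of cell cycle genes overlapped between the groups. S phase genes took 0.024% to 0.19% (median 0.087%) of reads in gene-rich and 0.0027% to 0.15% (median 0.067%) in gene-poor wells. G2 and M phase genes took 0.047% to 0.51% (median 0.18%) against 0.0080% to 0.40% (median 0.20%). Over thinned wells the S phase share was 0.112% (exact 95% binomial interval 0.101% to 0.124%) against 0.0729% (0.0674% to 0.0787%), and the G2 and M phase share 0.202% (0.187% to 0.217%) against 0.193% (0.184% to 0.203%). These intervals cover counting error only and not the spread of wells. The difference of S phase medians was -0.015 points in plate rows A to D and 0.122 in rows E to H. A 2-fold or higher mean was found for 2 of the 7 measured S phase genes in gene-rich and 1 in gene-poor wells, and for 2 and 3 of 18 G2 and M phase genes. Of all measured genes, 31.2% had such a mean in gene-rich and 18.4% in gene-poor wells.

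Single cell cycle genes rested on few wells. Mki67, a nuclear protein of cycling cells, stood at 2.37 and was read in 6 of 7 gene-rich and 1 of 18 gene-poor wells. Kif20a, a kinesin of cytokinesis, stood at -2.18 (2 thinned reads in gene-rich wells, a ratio of 10.7 for gene-poor over gene-rich, exact 95% counting interval 2.82 to 90.5). It was read in 2 of 7 gene-rich wells and in 2 of 18 gene-poor wells, replicates 15 (700 CPM) and 39 (400 CPM). Cdk1, the mitotic kinase, stood at -1.24 with reads in 2 of 7 and 6 of 18 wells. Mcm7, a subunit of the replicative helicase, stood at 1.04, Pcna, the sliding clamp of DNA polymerase, at -1.44, and Ccnb1, a mitotic cyclin, at -0.66. Leaving out a single well took Mcm7 to 0.20 and Ccnb1 to 0.34. The median of Pcna went the other way, at 20 against 0 CPM, with reads in 4 of 7 and 4 of 18 wells. Among 8 measured G1 cyclins and inhibitors, 4 were at least 2-fold higher in gene-rich wells, beside 31.2% of all measured genes. These 4 were Ccnd2 at 3.38 (2.49 without replicates 4 and 22) and Ccnd1 at 1.56, which are D-type cyclins, Cdkn1a at 1.68, a p53-driven inhibitor, and Ccng1 at 1.14. Without replicates 4 and 22 the count was 2 of 8, beside 585 of all 2229 measured genes, with Cdkn1a at 0.80 and Ccnd1 at 0.58. All 4 were at 400 CPM or more on average in MEFs.

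**Figure D4:**
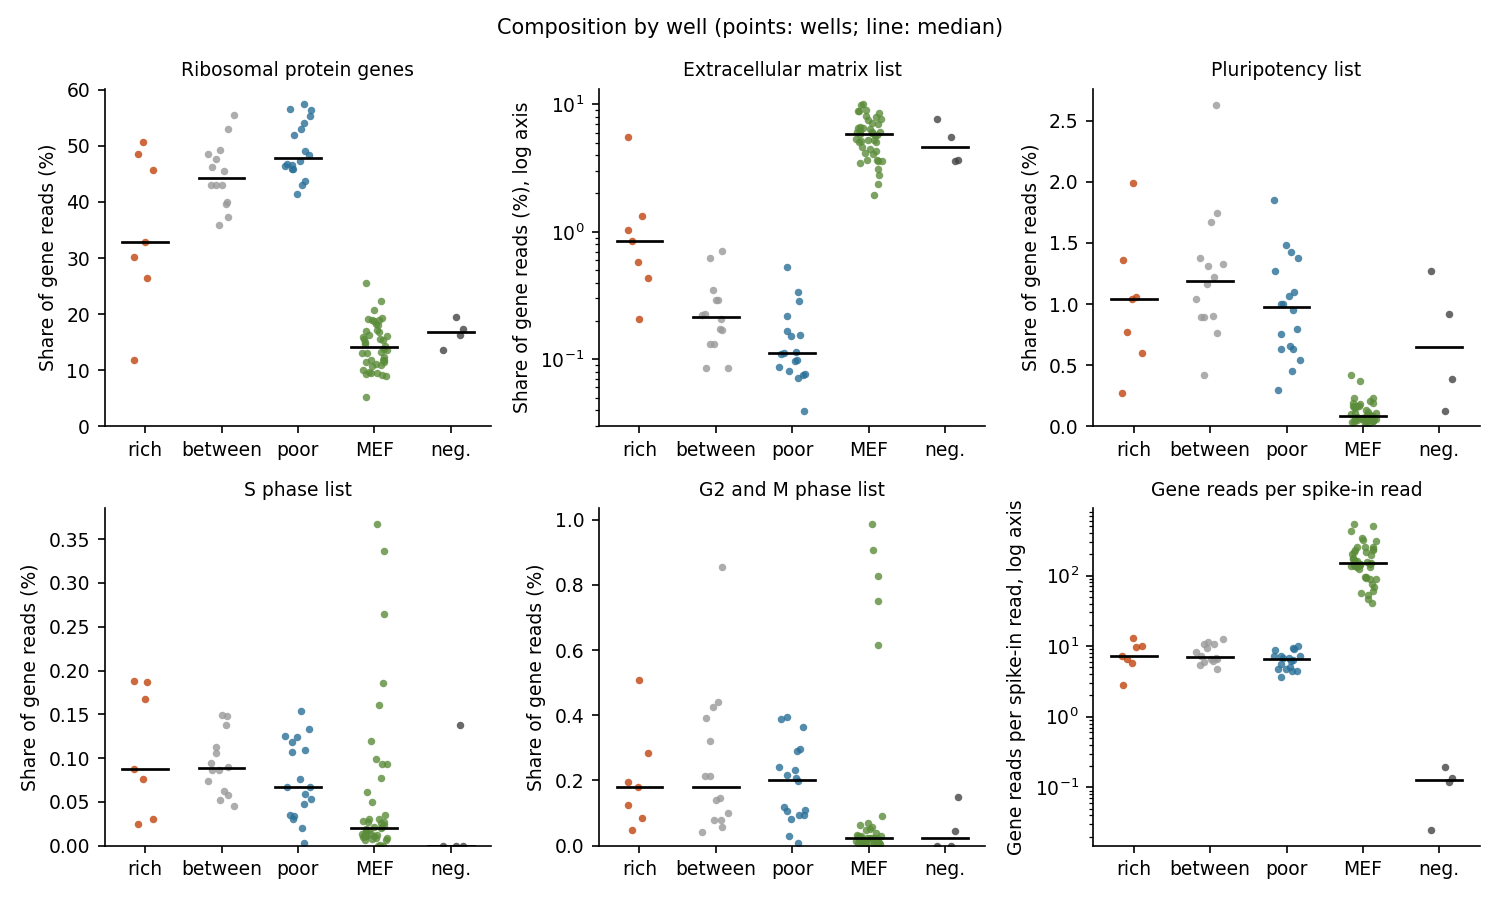
Share of gene reads in percent taken by 5 gene sets, and gene reads per spike-in read, in gene-rich, between, gene-poor, MEF and negative control wells, with points for wells and lines for medians. The matrix and spike-in panels have log axes and the others start at 0. Ribosomal protein shares are lowest among ES cell wells in the gene-rich group, matrix shares are higher in it, and pluripotency, S phase and G2 and M phase shares overlap.

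Gene reads per spike-in read, a gauge of the amount of cellular RNA read, overlapped widely. They were 2.79 to 13.1 (median 7.23) in gene-rich wells and 3.60 to 10.0 (median 6.61) in gene-poor wells, a log2 ratio of medians of 0.13, while MEFs held a median of 152 and negative control wells 0.126. The log2 ratio was 0.71 in plate rows E to H alone, -0.15 in rows A to D alone and -0.017 without replicates 4 and 22. Split by kind, ribosomal protein reads per spike-in read were 0.84 to 4.59 (median 2.90) against 1.65 to 5.56 (median 3.01). Reads on all other genes per spike-in read were 1.95 to 8.78 (median 5.46) against 1.87 to 4.73 (median 3.40), with 4 of 7 gene-rich wells above every gene-poor well (log2 ratio 0.68). Spike-in reads themselves were 7615 to 52252 (median 43592) against 11811 to 55303 (median 21299). A median of 6 of the 8 spike-in types was read in each group.

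Over all measured genes, 696 of 2229 were at least 2-fold higher in gene-rich wells and 410 at least 2-fold higher in gene-poor wells. No gene (0%) had every gene-rich well above every gene-poor well, and none (0%) had every gene-rich well below. Without replicates 4 and 22 the counts were 585 and 523. Scaling by median of ratios gave 812 and 364 genes with a median log2 ratio of 0.45, scaling by spike-in reads 798 and 339 with 0.49, and leaving ribosomal protein genes out of the total 568 and 557 with -0.08, against 0.22 on the gene-read scale, so the split between the directions depends on the scale.

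Genes with a high MEF level were more often higher in gene-rich wells. Of 1082 measured genes at 100 CPM or more in MEFs, 40.6% were at least 2-fold higher in gene-rich and 6.19% in gene-poor wells (median log2 ratio 0.67, and 0.34 without replicates 4 and 22). Of 956 at 10 to 100 CPM, the figures were 23.3% and 26.5%. Of 126 at 1 to 10 CPM they were 14.3% and 49.2%, and of 65 under 1 CPM they were 24.6% and 43.1%, with medians of -0.90 and -0.60. The part that level and filter play in these shares was not tested.

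The genes furthest apart were read in 4 to 7 gene-rich wells and in 0 to 5 gene-poor wells. The minimum of 4 gene-rich wells was set by the rule for naming genes, which required reads in enough wells of the higher group. The choice of wells by rows read also favours reads in more gene-rich wells. In all, 606 genes could be named among the highest and 19 among the lowest. Rock1, a kinase that drives actomyosin contraction, stood at 571 against 1.11 mean CPM (5 of 7 and 1 of 18 wells, log2 ratio 5.71), with 1 thinned read in the gene-poor group and a ratio of means of 514 (exact 95% counting interval 91.3 to 20414). Slc44a2, a choline transporter, stood at 540 against 5.56 (7 and 3 wells, 5.14). D15Ertd621e stood at 4.95 (ratio 301, interval 52.95 to 11984), Rbm7, an RNA-binding factor of nuclear RNA decay, at 4.73, Tmem47 at 4.53, and Prr13 at 4.34 (ratio 193, interval 33.6 to 7718). Mon2, a Golgi trafficking protein, had 64 thinned reads in gene-rich and 0 in gene-poor wells, at least 54.9-fold higher when a floor of 3 reads over the gene-poor group is used. Smarca5, a chromatin remodelling ATPase, stood at 4.21, Serp1, a protein of the endoplasmic reticulum translocon, at 4.15, and Stx7, an endosomal syntaxin, at 4.01 (ratio 152, interval 26.2 to 6093). These means rested on few wells, and the counting intervals do not cover differences between wells or PCR copies. Leaving out a single well, replicate 41, took Rock1 (at 3500 CPM there) to a log2 ratio of 3.07 and Rbm7 to 1.65, and leaving out replicate 26 took Smarca5 to 1.71 and Tmem47 to 2.98. D15Ertd621e stood at 2.66 without replicate 10, Slc44a2 at 3.89 without replicate 21, Mon2 at 2.81 without replicate 22 and Stx7 at 1.96 without replicate 4. With replicates 4 and 22 left out, Mon2 stood at 2.63, Serp1 at 3.19 and Stx7 at 1.77. All of these were read in MEFs, at 32.5 to 439 mean CPM, in contrast to Lin28a.

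Gpx4, a peroxidase that removes lipid peroxides, was the most abundant of the genes named for a higher level in gene-poor wells, at 80 to 3760 CPM in gene-rich and 280 to 6300 in gene-poor wells, with means of 1266 and 3596 (log2 ratio -1.5, and -1.27 without replicates 4 and 22), and it was read in all 25 wells. mt-Nd6, the complex I subunit encoded on the other mitochondrial strand, stood at -3.33 (4 of 7 and 10 of 18 wells). Its medians were near, at 20 against 30 CPM, and its gene-poor mean rested largely on replicates 12 (2980 CPM) and 39 (1780 CPM). Dnajc19, of the mitochondrial import motor, stood at -2.72 (1 thinned read in gene-rich wells, a ratio of 26.1 for gene-poor over gene-rich, counting interval 4.52 to 1044, which does not cover differences between wells). Frg1 stood at -2.34, and Cisd1, an outer mitochondrial membrane protein, at -1.91. Dnajc19, Frg1 and Cisd1 each had medians of 0 against 10 CPM, and the gene-poor mean of Dnajc19 rested largely on replicate 42 (760 CPM). Psma5, a proteasome core subunit, stood at -1.89, Cd9, a tetraspanin, at -1.85, Ass1, of arginine synthesis, at -1.70, and Csrp2 at -1.57. The median of Ass1 was higher in gene-rich wells, at 60 against 20 CPM, and that of Csrp2 was 20 CPM in both groups. 2610305D13Rik stood at -1.73, 1810009A15Rik at -1.67 and 2610005L07Rik at -2.60, of which the last had 18.2% uniquely mapped reads and may share them with copies. Gapdh, the glycolytic enzyme, was at 1006 against 1928 mean CPM (-0.93).

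The medians of the other gene lists with at least 3 measured members ran from -0.79 to 1.02. Beside their counts, 31.2% and 18.4% of all measured genes were at least 2-fold higher in gene-rich and in gene-poor wells. Nuclear respiratory chain genes had a median log2 ratio of 0.16, with 9 of 42 at least 2-fold higher in gene-rich and 0 in gene-poor wells. The highest was Ndufa2, of complex I, at 1.77. Splicing and hnRNP genes had 6 and 2 of 31 (median 0.26), led by the splicing factor Srsf1 at 2.82. Proteasome genes had 8 and 1 of 23 (median 0.52), with Psmd2, of the regulatory particle, at 2.48. Glycolysis genes had 4 and 0 of 13 (0.17) and chromatin and DNA methylation genes 5 and 2 of 20 (-0.27), where Uhrf1, which guides maintenance methylation, stood at 1.87 and Chd4, a remodeller of the NuRD complex, at -2.27. Leaving out a single well took Chd4 to 1.39. The p53 and apoptosis list had 4 and 0 of 7 (1.02), with the anti-apoptotic Mcl1 at 2.99. Immediate early and heat shock genes had 3 and 0 of 10 (0.57), with the cochaperone Dnaja1 at 1.82. Mitochondrially encoded genes, 1 and 1 of 16, took 0.96% to 7.26% (median 3.52%) of reads in gene-rich wells and 0.75% to 5.10% (median 2.37%) in gene-poor wells. Noncoding RNAs had 3 and 0 of 11 (0.21), with Neat1, the scaffold of nuclear paraspeckles, at 3.17 and the imprinted H19 at 2.96. In the primed epiblast and mesendoderm list, 4 genes were measured. Otx2, a factor of the primed state, stood at -4.06 with reads in 4 of 18 gene-poor wells and 1 in gene-rich ones (1 thinned read, a ratio of 71.6 for gene-poor over gene-rich, counting interval 12.7 to 2841, which does not cover differences between wells). Fst, an activin inhibitor, stood at 2.78. Without replicates 4 and 22, the gene-rich counts were 1 of 7 for the p53 and apoptosis list, 2 of 13 for glycolysis, 5 of 23 for the proteasome, 2 of 10 for immediate early and heat shock genes and 5 of 28 for translation factors. Single genes then stood at 2.59 for Mcl1, 1.27 for Dnaja1, 1.36 for Uhrf1, 2.01 for Psmd2, 2.09 for H19 and 2.01 for Fst. Srsf1 stood at 1.54 without replicate 47. The medians of the S phase (0.24) and noncoding RNA (0.21) lists were -0.53 and -0.20 without replicates 4 and 22.

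**Figure D5:**
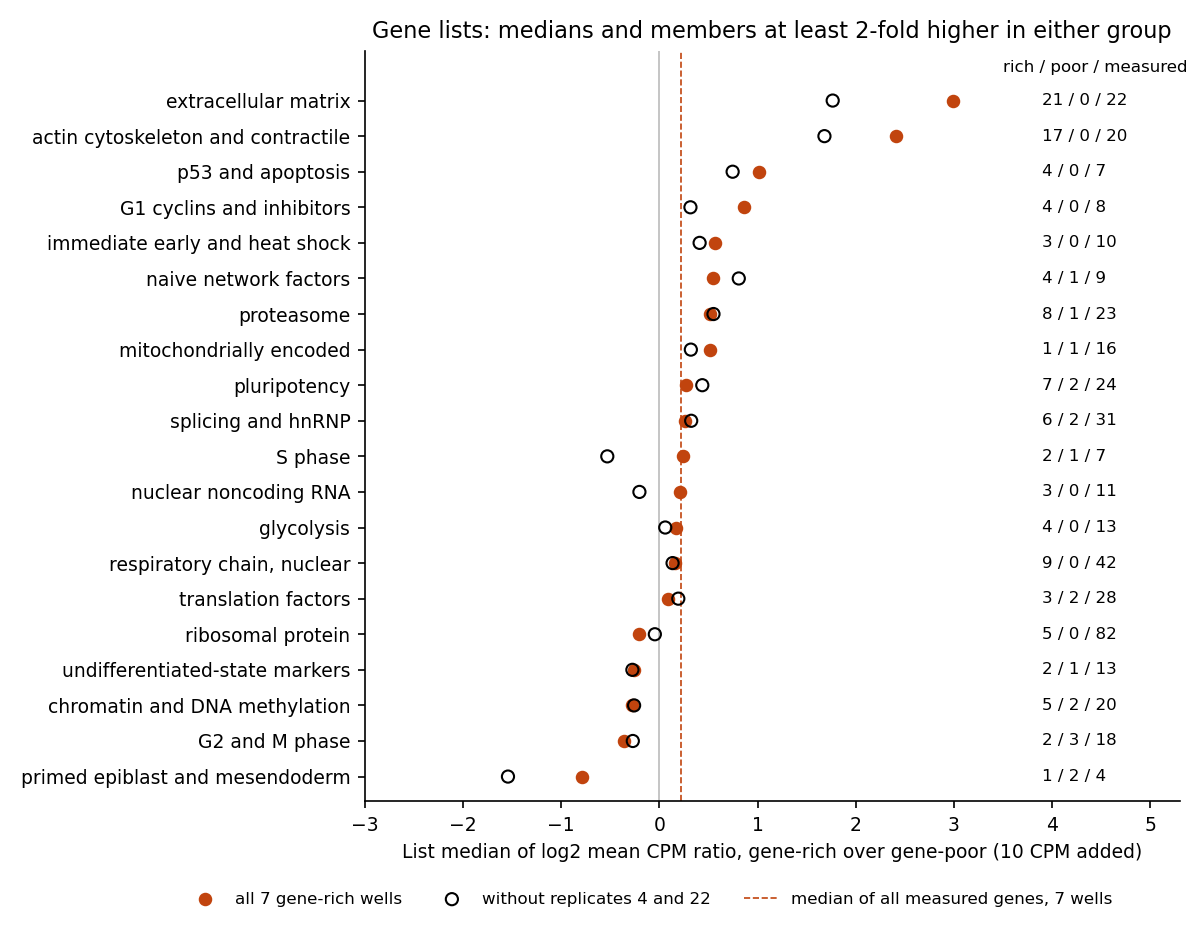
Median log2 ratio of mean CPM (10 CPM added), gene-rich over gene-poor wells, for gene lists with at least 3 measured members, filled for all 7 gene-rich wells and open without replicates 4 and 22, with the dashed line at the median of all measured genes (0.22). Numbers at the right give members at least 2-fold higher in gene-rich wells, in gene-poor wells and measured. Matrix (2.99) and actin (2.41) lists lie apart from the others and move to 1.77 and 1.68 without both wells.

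Gene-rich wells shared more of their genes with each other. Of the rows read in either well of a pair after thinning, 29.2% to 42.3% (median 32.01% over 21 pairs) were read in both for gene-rich pairs, and 19.4% to 25.5% (median 22.4% over 153 pairs) for gene-poor pairs. For a gene-rich with a gene-poor well it was 15.3% to 26.1% (median 21.2%). The larger sets of rows in gene-rich wells enter this share. Profile correlation with the MEF mean was 0.600 to 0.790 in gene-rich and 0.462 to 0.5255 in gene-poor wells, without overlap, while correlation with the ES cell mean was 0.636 to 0.768 against 0.623 to 0.706. Row number, by which the wells were chosen, can enter these correlations too.

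Within the gene-rich group the wells were of different kinds. Replicate 4 had few reads (55056), the most rows at 50000 reads, and the lowest ribosomal protein share. Replicate 22 followed it in rows but had 289568 gene reads and 128 matrix reads per 1000 spike-in reads. Replicates 26 and 47 had ribosomal shares of 30.1% and 32.9%, with the lowest and the highest gene reads per spike-in read of all 25 wells, 2.79 and 13.1. Replicates 10, 21 and 41 had ribosomal shares and Rpl4 levels inside the gene-poor range, although they held 2809 rows or more at 50000 reads.

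Over all 39 ES cell wells with enough reads, the row number at 50000 reads ran with composition as follows, as a description of wells that share a plate. With the ribosomal protein share Pearson's r was -0.76 and Spearman's rho -0.53, and r was -0.57 without the 2 wells furthest from the median share. With the matrix share they were 0.68, 0.72 and 0.66, and with the pluripotency share -0.01, 0.04 and -0.08. With gene reads per spike-in read they were 0.22, 0.23 and 0.14, and with gene reads 0.33, 0.52 and 0.29. Shares of reads are parts of the same total, and the same wells define the groups.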

How the data were processed

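STRT libraries of 96 wells were analysed from the table deposited by the authors, which holds raw read counts per transcript, repeat type and spike-in RNA in each well, with no normalisation. Per the file headers, these counts are maximum exon hits that include reads with other mappings, and gene variants at 1 locus share counts. A further column deposited by the authors gives transcript length. Bowtie is named in the submitters' processing notes. Its version, the genome build and the annotation are not given in the sources used here. No molecular identifiers are mentioned, so PCR copies count separately and intervals cover counting error only.

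Totals of gene reads left out repeat and spike-in rows. Expected rows at equal reads came from the hypergeometric formula. For gene values each well was thinned to 50000 gene reads with a fixed seed, scaled to CPM, averaged over wells and compared as log2 ratios with 10 CPM added. Genes with at least 50 thinned reads over the 25 wells were measured. Named genes had at least 100 reads before thinning and a thinned read in at least 50% of the higher group's wells, and were the 12 highest and 12 lowest that stayed 2-fold apart with each well left out. The 4 members of each list with the largest ratio, the 4 most read ribosomal protein genes and a fixed set of marker genes were added, of which some are not reported here. Members of the groups and the lists were chosen with earlier results of these data known. No p-value was computed, since the labels name no separate cultures. Scripts were tested on simulated data. Python 3 libraries numpy, pandas and scipy were used.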

Additional observations from a re-analysis of the deposited data

Results flagged for a closer look

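Replicate 4 stood apart from the other 6 gene-rich wells in 2 of 13 well measures that were checked for a single distant value. Its matrix share was 5.57% of gene reads, and the next highest gene-rich well held 1.33%. Its share of actin cytoskeleton and contractile genes was 4.65%, and the next highest held 2.02%. Chance flags about 1 in 20 groups in such a check, a rate that was not tested for these wells, which were chosen by their read counts. Both measures also had their MEF medians in this range, at 5.81% and 4.90%, and the source of these reads in replicate 4 was not tested.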

How the results depend on the processing

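Directions held in every alternative for gene rows at equal reads, ribosomal protein share and matrix share. For gene rows the choice of wells largely fixed this, since the alternatives count the same rows. The log2 ratio of gene rows, 1.29, was 1.55 on all gene reads and 0.86 for rows with at least 5 reads, and 1.27 to 1.32 with each single well left out. The ribosomal protein difference of -14.8 points was -2.23 in wells with at least 100000 gene reads and -1.92 without wells nearer the MEF mean, and -16.2 to -8.38 with single wells left out (the last without replicate 4). The matrix difference of 0.71 points ran from 0.31 to 1.29, and from 0.61 to 0.82 with single wells left out. The pluripotency difference of 0.037 was -0.48 with ribosomal protein genes left out of the total, and -0.098 to 0.066 with single wells left out. The S phase difference of 0.032 ran from -0.015 to 0.12 and was 0.122 in plate rows E to H and 0.029 to 0.074 with single wells left out, and the G2 and M phase difference of -0.027 ran from -0.14 to 0.078, and from -0.059 to -0.017 with single wells left out. The log2 ratio of gene reads per spike-in read, 0.13, was 0.68 with ribosomal protein genes left out, 0.71 in plate rows E to H, -0.15 in rows A to D, -0.017 without wells nearer the MEF mean, and 0.058 to 0.35 with single wells left out. Genes at least 2-fold higher in gene-rich wells (696) numbered 2489 with at least 10 thinned reads, 99 with at least 200 and 1258 on median CPM, and 625 to 727 with single wells left out. Those higher in gene-poor wells (410) numbered 255 with 50 CPM added, 1080 and 91 under these filters and 45 on median CPM, and 393 to 487. Apart from the filters, whose number of genes sets the count, the cause was not tested. The matrix, actin, pluripotency and ribosomal protein list counts without replicate 4 and without both wells nearer the MEF mean were chosen after seeing the data. The ribosomal protein count of 5 was 4 in both, and the pluripotency count of 7 was 7 and 8. No paired analysis was possible because the groups are wells of 1 cell type and share no replicate numbers. At 50000 reads, 1 read is worth 20 CPM, so values near that limit allow no comparison.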

Other observations

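The 14 ES cell wells between the limits took intermediate values on several measures. Repeat types at 5000 repeat reads were 132.5 to 191.6 (median 166.3), spike-in reads 19567 to 56017 (median 30782.5) and matrix reads per 1000 spike-in reads 6.18 to 36.9 (median 16.5). Their pluripotency share over thinned wells was 1.25% (exact 95% binomial interval 1.22% to 1.28%), above both the gene-rich (1.02%) and the gene-poor (0.981%) value, and their G2 and M phase share was 0.2503% (0.239% to 0.262%). These intervals cover counting error only.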
